A study of Mus musculus with 4 samples.

Results

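The HoxC cluster of the mouse holds 9 homeobox genes, Hoxc4, Hoxc5, Hoxc6, Hoxc8, Hoxc9, Hoxc10, Hoxc11, Hoxc12 and Hoxc13. They were chosen by their gene symbols, and all 9 were found among the 24421 genes in the count files. Their expression was examined in R1 mouse embryonic stem cells (ESCs), an established line, before (Undiff) and after (Day4) differentiation with retinoic acid (RA). There were 2 Illumina TruSeq libraries for each state, labelled replicates 1 and 2, grown and treated separately according to the methods of the study. Undiff cells had no RA. The labels describe them as embryoid bodies and the methods as ESCs kept with leukaemia inhibitory factor (LIF). Day4 samples were embryoid bodies cultured without LIF and then exposed to RA for 4 days. The RA dose is 2 mM in the sample labels and 2 µM in the series design and the methods. RA, LIF and days in culture differ together between the states and cannot be told apart, and Day4 cells without RA were not analysed here. An embryoid body is an aggregate of several cell types, so that in these bulk libraries fewer cells of a type and less RNA per cell cannot be told apart. Between 32099074 and 47730944 fragments were counted on genes per library. All 10 markers of pluripotent cells on the list used, among them Pou5f1 and Nanog, were lower in Day4, and their summed level went from 4857 and 4877 CPM (counts scaled to 1000000 per library) in Undiff to 29.5 and 23.4 CPM in Day4.

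Hox proteins are transcription factors that bind DNA through a homeodomain and give cells of the embryo their position along the head-to-tail axis. Their genes lie in clusters that arose by duplication, and genes at the same place in different clusters, called paralogues, share a group number. Genes with low numbers, at the 3′ end of a cluster, are known to be switched on earlier and further towards the head than genes with high numbers, at the 5′ end. RA, a vitamin A derivative, is a known inducer of the 3′ genes. HoxC has no members of groups 1 to 3 or of group 7.

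In GENCODE vM21 (GRCm38), the cluster is on the plus strand of chromosome 15 and runs from the start of Hoxc13 at 102921103 to the end of Hoxc4 at 103036852. The homeobox is the coding stretch that the 9 genes share, and 51 bases of it are shown for 8 of the genes because they encode the recognition helix, which lies in the major groove of DNA. The stretches are within coding exons on the plus strand of GRCm38, at chr15:103035786-103035836 for Hoxc4, chr15:103010877-103010927 for Hoxc6, chr15:102992694-102992744 for Hoxc8, chr15:102984053-102984103 for Hoxc9, chr15:102970971-102971021 for Hoxc10, chr15:102956603-102956653 for Hoxc11, chr15:102938431-102938481 for Hoxc12 and chr15:102927333-102927383 for Hoxc13. Capitals mark bases that differ from Hoxc4, the member at the 3′ end.
Hoxc4: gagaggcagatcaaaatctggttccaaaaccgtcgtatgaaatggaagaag
Hoxc6: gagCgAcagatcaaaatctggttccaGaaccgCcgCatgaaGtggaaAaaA
Hoxc8: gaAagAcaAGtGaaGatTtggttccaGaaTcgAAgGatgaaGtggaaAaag
Hoxc9: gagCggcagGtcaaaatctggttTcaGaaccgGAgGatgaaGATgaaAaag
Hoxc10: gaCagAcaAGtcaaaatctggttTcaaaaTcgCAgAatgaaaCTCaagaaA
Hoxc11: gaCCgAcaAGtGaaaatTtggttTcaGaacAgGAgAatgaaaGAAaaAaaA
Hoxc12: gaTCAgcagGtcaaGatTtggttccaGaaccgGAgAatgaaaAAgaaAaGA
Hoxc13: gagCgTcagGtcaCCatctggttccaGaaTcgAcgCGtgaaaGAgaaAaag
Hoxc6 differed from Hoxc4 at 8 of these 51 bases and Hoxc9 at 11, while Hoxc11 differed at 18. Over the 180 bases of the whole homeobox, identity to Hoxc4 was 70.6% for Hoxc6, 63.9% for Hoxc8 and 59.4% for Hoxc10, and Hoxc9 had 108 identical bases. It was between 51.1% and 52.8% for Hoxc11, Hoxc12 and Hoxc13. No run of 50 bases in the transcripts of Hoxc4, Hoxc6, Hoxc11, Hoxc12 or Hoxc13 occurred in another gene, and the share of such runs found elsewhere was 0.432% in Hoxc8 and 1.44% in Hoxc9, so that fragments of these genes can be told apart over most of their length.

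Of the 9 HoxC genes, 6 were higher in Day4 (Hoxc4, Hoxc5, Hoxc6, Hoxc8, Hoxc9 and Hoxc10), 1 was lower (Hoxc13) and 2 did not pass the thresholds of a differentially expressed gene (DEG), Hoxc11 and Hoxc12. A DEG had an adjusted p of at most 0.05 in the quasi-likelihood test of edgeR, a log2 fold change of 1 or more in size and normalized counts that averaged 5 or more. Over all 19891 genes tested, 22.2% were DEGs higher in Day4 and 20.6% were DEGs lower in Day4. The mean reached 5 in 7 of the 9 genes, and the other two were Hoxc11 and Hoxc12. The median log2 fold change was 8.25 over the 9 genes and -0.03 over all genes tested. With Hoxc11 set to its lower bound and without Hoxc12, for which no fold is given, the median was 8.31. The genes together held 45 and 54 counts in the Undiff libraries and 17360 and 24345 counts in the Day4 libraries, which is 1.23 and 1.68 CPM against 497 and 510 CPM.

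**Figure D1:**
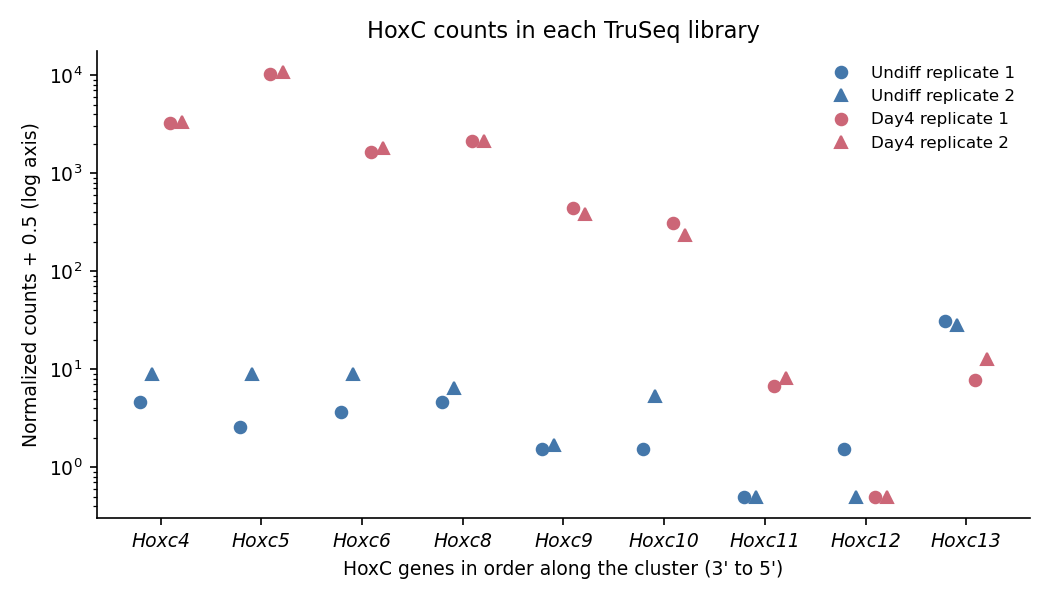
Normalized counts plus 0.5 (log axis) of the 9 HoxC genes in each of the 4 libraries, in order along the cluster from Hoxc4 to Hoxc13, with circles for replicate 1 and triangles for replicate 2. From Hoxc4 to Hoxc10 the Day4 points (red) lie above the Undiff points (blue), Hoxc11 and Hoxc12 have at most 7.68 normalized counts in any library, and Hoxc13 is the only member whose Undiff points lie above its Day4 points with more than 1 count in each library.

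Hoxc4, Hoxc5 and Hoxc6 make up the 3′ end of the cluster and are known for roles in the neck and upper thorax. Hoxc4 had 4.17 and 8.38 normalized counts in the Undiff libraries and 3241 and 3341 in the Day4 libraries. Its log2 fold change was 9.04 ± 0.13 (SE, n = 2 per state, edgeR adjusted p = 4.12e-15). The Undiff values rest on 4 and 7 counts, and the ratio of the pooled count rates was 538 with an exact 95% interval of 301 to 1079, which covers counting error only.

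Hoxc5 had 2.08 and 8.38 normalized counts in Undiff and 10361 and 10780 in Day4. The Day4 libraries lay far above the Undiff libraries and differed from each other by less than the Undiff libraries did in proportion. Its log2 fold change of 11.01 ± 0.13 (SE, n = 2 per state, edgeR adjusted p = 5.89e-16) was higher than that of any other HoxC gene. The size depended on the 2 and 7 counts in Undiff, since the log2 fold change was 12.23 without Undiff replicate 2 and 10.28 without Undiff replicate 1, and the ratio of pooled count rates was 2115 (exact 95% interval 1114 to 4626). The DESeq2 fit, run as an alternative without shrinkage of fold changes, gave Hoxc5 a larger SE of 0.48. Hoxc6 had 3.13 and 8.38 normalized counts in Undiff and 1631 and 1820 in Day4. Its log2 fold change was 8.25 ± 0.18 (SE, n = 2 per state, edgeR adjusted p = 1.24e-13), or 9.06 without Undiff replicate 2.

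Hoxc8, Hoxc9 and Hoxc10 lie in the middle of the cluster and are known for roles in the thorax, the lumbar region and the motor neurons at those levels. Hoxc8 had 4.17 and 5.98 normalized counts in Undiff and 2140 and 2113 in Day4. Its log2 fold change was 8.69 ± 0.14 (SE, n = 2 per state, edgeR adjusted p = 1.04e-14). The Day4 replicates of Hoxc8 were closer to each other, at 2127 ± 19.4 (SD, n = 2), than those of any other member with over 100 normalized counts. Hoxc9 had 1 count in each Undiff library, and 438 and 383 normalized counts in Day4. Its log2 fold change was 8.36 ± 0.29 (SE, n = 2 per state, edgeR adjusted p = 2.94e-12). The ratio of pooled count rates for Hoxc9 was 365, with an exact 95% interval of 101 to 3016, so that its size is known only roughly. Hoxc10, which acts in the lumbar region and the hindlimb, had 1.04 and 4.79 normalized counts in Undiff and 309 and 234 in Day4. Its log2 fold change was 6.52 ± 0.37 (SE, n = 2 per state, edgeR adjusted p = 1.54e-09), 7.85 without Undiff replicate 2 and 5.77 without Undiff replicate 1. Of the 6 members that were higher, Hoxc10 had the lowest level in Day4 and the smallest fold change. A long Hoxc5 transcript in GENCODE starts within the first exon of Hoxc10, and 6.40% of the 50-base runs of Hoxc10 and 3.92% of those of Hoxc5 are in both genes, so that fragments there cannot be assigned to one of them. Whether the annotation used for counting holds that transcript is not given in the sources used here.

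Hoxc11, Hoxc12 and Hoxc13 form the 5′ end of the cluster and are known from the sacral and tail region, the hindlimb and, for Hoxc13, the hair and nails. Hoxc11 had no count in Undiff and 6 and 10 counts in Day4, or 6.27 and 7.68 normalized counts. The groups did not overlap and the edgeR adjusted p was 0.00335 (n = 2 per state), but the mean over the 4 libraries was below 5, and Hoxc11 was not a DEG. Against a floor of 3 counts per Undiff library, Hoxc11 was at least 1.94-fold higher in Day4. With no minimum count, 7 HoxC genes would be called higher in place of 6. Hoxc12 had 1 count in Undiff replicate 1 and none in the other 3 libraries. At this depth it was not detectable as different between the states (edgeR adjusted p = 0.292, n = 2 per state), and 3 counts correspond to between 0.0629 and 0.0935 CPM in these libraries. Hoxc13 had 29 and 23 counts in Undiff and 7 and 16 in Day4. Its normalized counts were 30.2 and 27.5 in Undiff and 7.31 and 12.3 in Day4, so that the groups did not overlap. Hoxc13 was lower in Day4 by a log2 fold change of -1.50 ± 0.38 (SE, n = 2 per state, edgeR adjusted p = 0.0027). The ratio of its pooled count rates, Undiff over Day4, was 2.85 with an exact 95% interval of 1.71 to 4.87. In Undiff, Hoxc13 thus had more normalized counts than any other HoxC gene, and it supplied 64.4% and 42.6% of the HoxC counts in the Undiff libraries and 0.0403% and 0.0657% in the Day4 libraries.

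Levels of different genes were compared as CPM per kb of exon, with exon lengths from GENCODE. In Day4 the order was Hoxc5 at 91.4 ± 2.56 (SD, n = 2), Hoxc4 at 34.2 ± 0.735, Hoxc8 at 20.1 ± 0.183, Hoxc6 at 19.1 ± 1.48, Hoxc9 at 4.51 ± 0.424, Hoxc10 at 3.80 ± 0.742, Hoxc13 at 0.106 ± 0.0382, Hoxc11 at 0.0922 ± 0.0132 and Hoxc12 at 0. The Day4 values of Hoxc8 and Hoxc6 overlapped, as did those of Hoxc9 and Hoxc10 and those of Hoxc13 and Hoxc11. The other neighbours in this order did not overlap. Hoxc8 came before Hoxc6 with the union of all exons, at 20.1 against 19.1, and after it with the longest transcript, at 25.6 against 29.1. The level per kb did not fall evenly along the cluster. Hoxc5 lay 2.67 times above Hoxc4, its 3′ neighbour, and from Hoxc10, whose start codon is 67.9 kb upstream of that of Hoxc4, to Hoxc11 at 80.2 kb the level went from 3.80 to 0.0922. Hoxc13, at 113.5 kb, was the member farthest from Hoxc4 and had the highest level per kb in Undiff, at 0.313 ± 0.0207 (SD, n = 2).

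**Figure D2:**
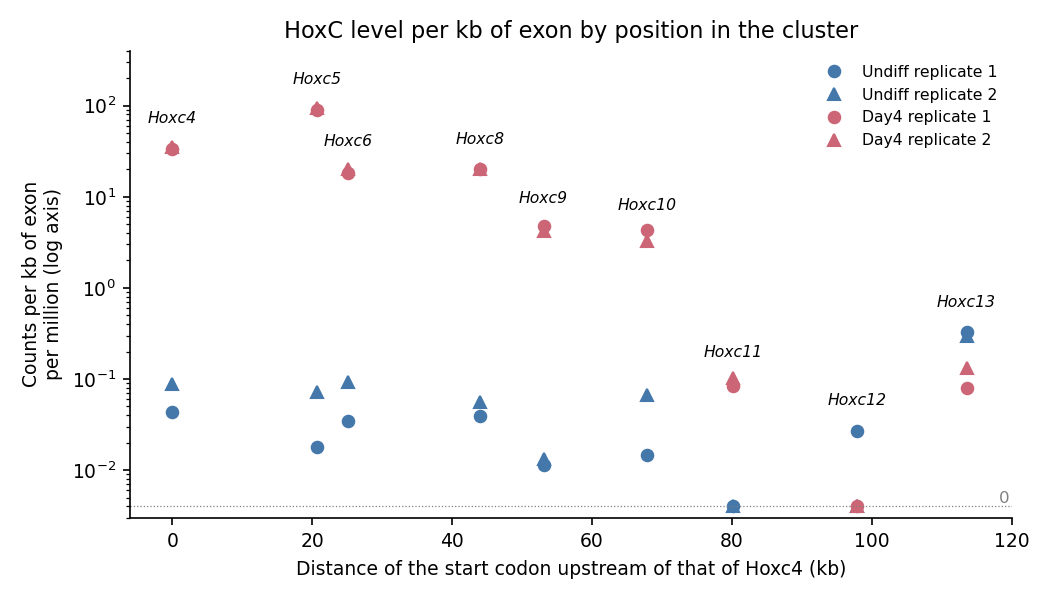
CPM per kb of exon (log axis) for each HoxC gene and library against the distance of its start codon upstream of the Hoxc4 start codon, in kb. Points on the dotted line are at 0. The Day4 points (red) are highest at Hoxc5, at 91.4 on average, stay above 3 up to Hoxc10 and are at or below 0.133 from Hoxc11 to Hoxc13.

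Among all 39 genes of the 4 Hox clusters, Hoxc5 ranked 3rd by level per kb in Day4. Hoxa5 was higher at 145 ± 4.06 (SD, n = 2), and Hoxa4 at 92.6 ± 1.26 overlapped with Hoxc5. Hoxc4 ranked 4th. The gene of group 5 had the highest level per kb of its cluster in HoxA, HoxB and HoxC, and in HoxD, which has no group 5 gene, it was Hoxd9 at 9.15 ± 0.175. HoxC supplied 16.3% and 22.1% of all Hox counts in Undiff, and 32.0% and 32.5% in Day4. The share was higher in both Day4 libraries, with an exact permutation p of 0.33 (two-sided, n = 2 per state), which is the smallest that 2 against 2 allows. The Undiff shares rest on 45 and 54 counts. Divided by exon length, the HoxC share in Day4 was 27.6% ± 0.205 (SD, n = 2). In Day4 the HoxA share of counts was 37.3%, that of HoxB 25.1% and that of HoxD 5.25%. Within HoxC, Hoxc5 alone supplied 57.1% and 57.7% of the Day4 counts.

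The paralogues in HoxA, HoxB and HoxD show how far the HoxC pattern is shared. Of 22 paralogues of groups 4 to 13, 20 were higher in Day4, beside 22.2% of all genes tested, with a median log2 fold change of 6.73 over the 22. With members at 0 in Undiff set to their lower bounds and without Hoxd12, it was 6.57. None was lower, by edgeR or by DESeq2, and the lowest log2 fold change among them was 0.13. The other two were Hoxd12, with 0 counts in the Undiff libraries and 1 in each Day4 library, and Hoxd13. In group 4, the log2 fold change of Hoxc4 was 9.04, beside 9.67 for Hoxa4, 8.46 for Hoxb4 and 8.07 for Hoxd4. In group 5, Hoxc5 at 11.01 stood beside Hoxa5 at 10.67 and Hoxb5 at 10.83. In group 9, Hoxc9 had a log2 fold change of 8.36, and Hoxb9 had 2.99 ± 0.24 (SE, n = 2 per state). Hoxb9 started from 25.0 and 32.3 normalized counts in Undiff, and Hoxc9 from 1.04 and 1.20.

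The genes of group 13 did not move in 1 direction, since Hoxc13 was lower in Day4 and Hoxa13 and Hoxb13 were higher. The log2 fold change of Hoxc13 was -1.50 ± 0.38 (SE, n = 2 per state). Hoxd13 had 42.7 and 31.1 normalized counts in Undiff and 38.7 and 42.2 in Day4, with overlapping ranges and a log2 fold change of 0.13 ± 0.26. Hoxb13 had 14.6 and 9.57 normalized counts in Undiff and 481 and 545 in Day4, a log2 fold change of 5.38 ± 0.20. Hoxa13 had no count in Undiff and 40 and 47 counts in Day4. These genes are at the 5′ ends of their clusters and are known for patterning the tail, the digits and the urogenital tract. The difference between the fold changes of paralogues was not tested.

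**Figure D3:**
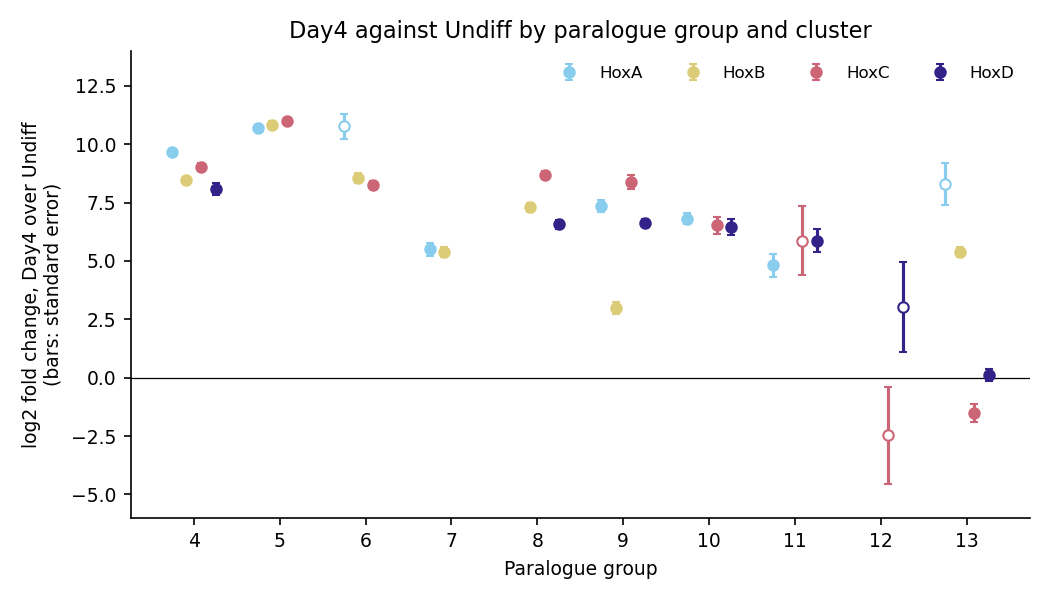
Log2 fold change of Day4 over Undiff from edgeR (points) with its standard error (bars), for Hox genes of groups 4 to 13, coloured by cluster. Open points mark genes with no count in Undiff or none in Day4, for which the fitted value depends on the fit. The HoxC points run from 9.04 and 11.01 in groups 4 and 5 to 6.52 in group 10, and the HoxC points of groups 12 and 13 are the only ones below 0.

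Within a paralogue group, the share of the HoxC gene in the Day4 level per kb varied along the cluster. Hoxc6 supplied 54.7% ± 2.65 (SD, n = 2) of group 6 and Hoxc8 supplied 57.8% ± 1.52 of group 8, in each case more than either paralogue. Hoxc4 supplied 22.2% ± 0.231 of group 4, where Hoxa4 had 60.1%. Hoxc5 supplied 34.1% ± 0.299 of group 5, where Hoxa5 had 54.2%. Hoxc9 supplied 24.6% ± 1.17 of group 9, in which Hoxd9 had 50.04%, and Hoxc10 supplied 34.8% ± 2.96 of group 10, in which Hoxa10 had 43.7%. At the 5′ end Hoxc11 supplied 4.13% ± 1.60 of group 11 and Hoxc13 supplied 1.47% ± 0.415 of group 13, in which Hoxb13 had 86.6%. HoxC was thus first in groups 6 and 8, second in groups 4, 5, 9 and 10, and last in groups 11 and 13.

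**Figure D4:**
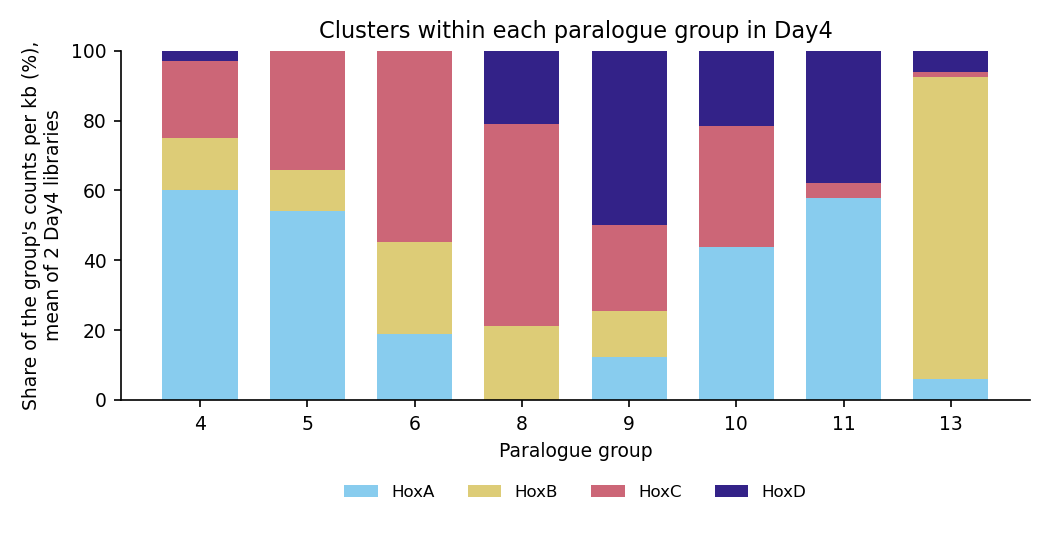
Share (%) of each cluster in the summed counts per kb of exon of a paralogue group, as the mean of the 2 Day4 libraries, stacked to 100. Group 12 is not drawn because its genes had at most 1 count in any library, and group 7 has no HoxC gene. The HoxC share (red) is largest in groups 6 and 8, at 54.7% and 57.8%, and smallest in groups 11 and 13, at 4.13% and 1.47%.

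Hox proteins bind DNA together with cofactors of the Pbx, Meis and Pknox families. Of 9 cofactor genes, 7 were higher in Day4, 1 was lower and 1 did not pass, with a median log2 fold change of 3.87. Over all genes tested, 22.2% were DEGs higher and 20.6% were DEGs lower. Meis2 went from 34.4 and 44.3 to 14690.2 and 14201, a log2 fold change of 8.53 ± 0.08 (SE, n = 2 per state). Pbx4 was lower, at -1.50 ± 0.14, and Pknox1 was at 0.59 ± 0.06. The Cdx genes encode caudal homeobox factors known to act on Hox genes of the trunk. Cdx1 was lower in Day4, from 25.0 and 21.5 to 3.13 and 7.68 normalized counts. Cdx2 had 43.8 and 40.7 in Undiff and 21.9 and 28.4 in Day4, below the minimum fold change, and Cdx4 had 11.5 and 5.98 in Undiff and none in Day4, with a mean below 5. With Cdx4 at its bound, the median log2 fold change of these 3 genes was -1.48.

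RA acts through nuclear receptors on target genes that include Hox genes. Of 10 RA response genes, 9 were higher in Day4, with a median log2 fold change of 4.88. This list includes Hox genes such as Hoxb1. Cyp26b1, which degrades RA, went from 19.8 and 17.9 to 16233 and 17168 normalized counts, and Stra8 did not pass, at -0.16 ± 0.24 (log2, SE, n = 2 per state). Polycomb complexes keep Hox genes silent, and trithorax-related proteins keep them active. Of 13 Polycomb subunit genes, 5 were higher and 5 were lower, with a median of -0.01. Among them Cbx7 was lower by a log2 fold change of -4.37 ± 0.06 and Cbx2 was higher by 2.06 ± 0.05. Jarid2, which had more normalized counts in Undiff than the other 12, was lower at -1.87 ± 0.05, and Ezh2, a methyltransferase of histone H3, was at -0.73 ± 0.04. Over all genes tested, 22.2% were DEGs higher and 20.6% were DEGs lower in Day4. Of 8 trithorax-related genes, 1 was higher and 2 were lower, which is near these shares, with a median of -0.49. The one that was higher was Kdm6b, a demethylase that removes the mark set by Ezh2, at 2.36 ± 0.05.

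The 5 genes outside the Hox clusters closest to Hoxc5 over the 4 libraries, by Euclidean distance of log2 (CPM + 0.5), were Tmem255a at 0.628, Rarb at 0.655, Nr2f2 at 0.723, Edil3 at 1.17 and Ednra at 1.29. Rarb encodes a nuclear receptor of RA and Nr2f2 the orphan receptor COUP-TFII. Rarb had 0.327 and 0.312 CPM in Undiff and 253 and 257 CPM in Day4. With 2 states, likeness over 4 libraries means little more than a like level in each.

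HoxC genes are known in fibroblasts, lateral mesoderm and spinal cord, so markers of these cells were measured beside them. For comparison, 22.2% of all genes tested were DEGs higher in Day4 and 20.6% were DEGs lower. Of 11 fibroblast markers, 9 were higher in Day4 and 2 were lower, with a median log2 fold change of 4.77. Their summed level was 71.7 and 67.2 CPM in Undiff and 2009 and 1841 CPM in Day4. Col3a1, a fibrillar collagen, went from 77.1 and 57.4 to 40193 and 36401 normalized counts, and Thy1 and S100a4 were lower at -3.80 ± 0.12 and -4.03 ± 0.33 (log2, SE, n = 2 per state). Of 10 mesoderm markers, 6 were higher and 2 were lower, with a median of 4.48 and a summed level of 37.7 and 38.6 CPM in Undiff and 441 and 448 CPM in Day4. Gata4 alone supplied most of this sum in Day4, with 4.06 and 4.64 CPM in Undiff and 261 and 265 CPM in Day4. Foxf1 and Tbx5, transcription factors of lateral mesoderm, were higher at 10.46 ± 0.14 and 10.49 ± 0.27, and Hand1, also of lateral mesoderm, was lower at -1.86 ± 0.19. In paraxial mesoderm, Meox1 was higher at 3.11 ± 0.14 and Tcf15 was lower at -4.31 ± 0.10. Of 10 hindbrain, spinal cord and motor neuron markers, 6 were higher and 1 was lower, with a median of 2.30, or 1.54 with 3 members at their bounds, and a summed level of 118.0 and 131 CPM in Undiff and 322 and 326 CPM in Day4. Foxp1, a transcription factor that is also found in many other cells, supplied most of this sum, with 111 and 125 CPM in Undiff and 309 and 313 CPM in Day4. Among these markers, Olig2, Mnx1 and Chat, which define motor neurons and their progenitors, had at most 16.1 normalized counts in any library, and Chat was at 0 in both Day4 libraries. Of 6 caudal progenitor markers, 3 were lower in Day4, with a median of -2.40 and a summed level of 6.24 and 5.45 CPM in Undiff and 1.20 and 1.68 CPM in Day4. T, a member of this list, went from 122 and 83.8 to 1.04 and 2.30 normalized counts. The part of these cell types in the HoxC counts was not tested.

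The locus also holds non-coding genes. Hotair, a long non-coding RNA on the minus strand between Hoxc11 and Hoxc12, had no count in Undiff and 2 and 1 counts in Day4. Mir196a-2, between Hoxc10 and Hoxc9, had 1 count in Day4 replicate 2, and Mir615, in an intron of Hoxc5, had 2 and 1 counts in Day4. Libraries of this kind do not hold mature miRNAs, so these counts do not measure them. The mature miR-196a-5p is shown because its seed, the bases 2 to 8 in capitals, has matches in the transcript of Hoxc8, a gene of the same cluster. The miRNA (chr15:102973365-102973386) and both matches (chr15:102992975-102992997 and chr15:102993732-102993754) are on the plus strand of GRCm38, the miRNA sequence is from RefSeq, and capitals mark the seed and the bases that pair with it.
mmu-miR-196a-5p: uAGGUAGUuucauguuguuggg
Hoxc8, base 135 after the stop codon: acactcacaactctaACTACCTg
Hoxc8, base 892 after the stop codon: ataaatctttaacatACTACCTa
The other 8 HoxC transcripts held no match to this seed after the stop codon. At least 1 match was found in 3.83% of 8690 genes, Hoxc8 among them, in a stretch of the same length as that of Hoxc8. The seed of miR-615-5p, from Mir615, had 1 match after the stop codon of Hoxc6 and 1 after that of Hoxc11. Such a match was found in 4.65% and 5.37% of genes in stretches of the same lengths. The mature miR-196a-2-3p and miR-615-3p had no seed match after the stop codon of any HoxC gene. RefSeq gave a promoter for Hoxc4 only (chr15:103034145-103034444, plus strand, GRCm38.p6). It held 1 copy of AGGTCA, the core motif of RA receptors, on either strand, and 16.3% of 32851 promoters held at least 1. No copy was found of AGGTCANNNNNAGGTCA or AGGTCANNAGGTCA, forms in which RA receptors bind. Each of these forms was in only 3 of the promoters (0.00913%), so their absence here says little. The Hoxc4 promoter held no copy of TTTATG, a motif of caudal factors that 11.9% of these promoters hold, or of TGATNNAT, a motif of Hox with Pbx that 8.85% hold. The TATA box motif TATAAA, which 13.6% of the promoters hold, was also not found there.

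Among protein-coding genes in the count files, the nearest outside the cluster moved less than the 6 HoxC genes that were higher. Non-coding genes outside the cluster were not examined. On the side of Hoxc13, between 198.9 and 295.6 kb away, Calcoco1 was higher in Day4, at 1.95 ± 0.05 (log2 fold change, SE, n = 2 per state), and Atf7, a leucine zipper transcription factor, was higher at 1.48 ± 0.07. Atp5g2, a subunit of ATP synthase between them, was at -0.20 ± 0.05. On the side of Hoxc4, between 116.4 and 203.6 kb away, Smug1, a DNA repair glycosylase, was higher at 3.37 ± 0.06, from 634 and 591 to 6386 and 6293 normalized counts. Cbx5, which encodes heterochromatin protein HP1 alpha, was at 0.34 ± 0.04, and Hnrnpa1, an RNA-binding protein with many pseudogene copies that make its counts uncertain, was lower at -1.20 ± 0.13.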

How the data were processed

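Undiff and Day4 were each represented by 2 TruSeq libraries, grouped by the sample titles. Before deposit, the authors removed adapters (cutadapt), mapped the fragments to mm10 (GRCm38) using STAR 2.4.2a and counted uniquely aligned fragments per gene with htseq-count. The deposited values are whole-number counts per gene symbol, not normalized. The methods name Direct RNA as the strand-specific samples and state no strand option for TruSeq gene counts. The labels name 2 TruSeq kits, RNA v2 and the strand-specific RiboZero Gold, of which the methods give only the former. Overlapping genes on opposite strands are thus uncertain, and multi-mapping fragments were left out by the authors. Besides the 32099074 to 47730944 counts on genes, 7.50% to 13.2% of the fragments were on no gene and 1.84% to 1.91% were ambiguous, and these were left out of library sizes and tests.

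Here, TMM factors and the quasi-likelihood test of edgeR 4.0.16 in R 4.3.3 (glmQLFit with its current, non-legacy method, and glmQLFTest) were used for the 19891 genes with at least 1 count, without a block, and p-values were adjusted by the Benjamini-Hochberg method over all of them. The common dispersion was 0.00134. The DEG thresholds follow the methods of the study, and DESeq2 1.42.0, which the authors used, was run as an alternative. For normalized counts, each library was scaled to the geometric mean of the TMM-adjusted sizes, and SE is the size of the log2 fold change divided by the square root of F. For the HoxC genes higher in Day4, which start from few counts, this SE was smaller than that of DESeq2 without shrinkage. The latter was 0.44 for Hoxc4, 0.48 for Hoxc5 and 1.04 for Hoxc9, so the SE given understates the uncertainty of these sizes. Exon lengths, start codons and shared 50-base runs came from GENCODE vM21, not from the annotation used by the authors. Within each state, replicates differed by more than sampling noise, with a chi-square per degree of freedom of 5.71 in Undiff and 3.07 in Day4. All HoxC genes were named, with other genes given by list, with the member with the most counts and members that went against their list as examples. Some items are not reported here. The members and lists were chosen with earlier results of these data known. The edgeR p-values rest on the spread between 2 libraries per state, moderated with that of all genes. This moderation had 10.4 prior degrees of freedom, so the p-values rest largely on the spread of other genes.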

Additional observations from a re-analysis of the deposited data

How the results depend on the processing

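No HoxC gene lost or changed its call under DESeq2 (with the settings of the study or without shrinkage), DESeq2 size factors, library totals, filterByExpr, thinning to the smallest library, the legacy edgeR fit (added after seeing the data), the replicate block or with any 1 library left out, except that filterByExpr removed Hoxc11 and Hoxc12 and that without Undiff replicate 1 Hoxc12 had no count left to test. The median HoxC log2 fold change of 8.25 became 7.64 with the DESeq2 settings of the study, which shrink fold changes, and lay between 7.97 and 8.46 with 1 library left out. Hoxc9 went from 8.36 to 7.64 with those settings and to 9.09 after thinning, and Hoxc11 from 5.87 to 5.05 and 3.19 with DESeq2 without and with shrinkage. Without a minimum fold change, the number of DEGs was 14309 in place of 8521, 7305 in place of 4420 higher and 7004 in place of 4101 lower. The HoxC share of Hox counts in Day4 was 27.6% per exon length in place of 32.3%. Same-numbered replicates did not deviate together (r = -0.0073 over 16472 genes). With so few libraries, this cannot exclude that samples with the same number were handled as pairs. With the replicate block there were 8515 DEGs, 4414 higher and 4101 lower, and among them 6 HoxC genes higher and 1 lower and 20 paralogues higher. The median HoxC log2 fold change with the block was 8.24. The depth limits Hoxc11 and Hoxc12, and the size of the fold changes that start from fewer than 10 counts in Undiff.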
